A study of Homo sapiens with 8 samples.

Results

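Homeobox genes encode transcription factors that bind DNA through a homeodomain, and 10 of them, out of 63677 genes in the deposited count tables, were followed in 2 lines of human T-ALL (T-cell acute lymphoblastic leukaemia). The genes were TLX3, TLX1, DLX1, DLX2, HHEX, HOXA9, HOXA10, MEIS1, PBX2 and PBX3, matched by symbol. The list was chosen by earlier results of these data as well as by function: the fall of TLX3 and of DLX1 in DND-41 and the line difference of TLX3 were already known, so those values are given as descriptions, with no test. All 10 symbols were found, and a wider list of 215 other homeobox genes served for comparison.

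RNA was sequenced from DND-41 and MOLT-4, both established T-ALL cell lines with no engineered change named in the labels, grown in RPMI-1640 medium with fetal bovine serum and antibiotics. Cells of each line received either ACBI-1 at 100 nM or its solvent DMSO for 3 h. ACBI-1 is a bifunctional molecule that recruits the VHL ubiquitin ligase to SMARCA2, SMARCA4 and PBRM1, subunits of SWI/SNF chromatin remodelling complexes, so that they are degraded. The 4 groups (DND-41 DMSO, DND-41 ACBI-1, MOLT-4 DMSO and MOLT-4 ACBI-1) held 2 libraries each, and no label states that these were grown apart, so a p-value here reflects the spread of these libraries alone, possibly a technical one.

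TLX1 and TLX3 belong to the NKL subclass of homeobox genes, are silent in normal T-cell development and act as oncogenes in T-ALL when a chromosomal rearrangement switches one of them on. HOXA9, HOXA10 and the TALE-class cofactor MEIS1, which with PBX proteins forms DNA-binding complexes with HOX proteins, mark another T-ALL subtype and early blood progenitors. DLX1 and DLX2 are neighbouring NKL genes known from forebrain and craniofacial development, and HHEX is an NKL gene of blood and endoderm progenitors that lies downstream of LMO2 in T-cell leukaemia.

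The libraries were of even depth, from 19867779 to 20082524 counts, so a count of 10 stood for about 0.50 CPM (counts scaled to a common library size). T-lineage markers were present in both lines, with 15 of 16 at 1 CPM or more in DND-41 and 16 of 16 in MOLT-4. None of 6 myeloid and none of 5 erythroid markers reached 1 CPM in either line, and of the B-lineage markers MS4A1 was at 0 in both while the list summed to 1534 to 1769 CPM in DND-41, mainly CD79A, and to 10.5 to 17.4 CPM in MOLT-4. The DND-41 ACBI-1 libraries differed most from each other, with a mean chi-square per gene of 17.2, against 3.19 to 5.58 in the other groups. Their mitochondrial shares were 17.4% and 13.3%, against 15.2% and 15.1% in DND-41 DMSO. By genes typical of the other line, a different library stood apart. DND-41 DMSO replicate 2 held 16 genes typical of MOLT-4 at a median of 0.653% of their MOLT-4 level. The other DND-41 libraries held them at 0.0387% to 0.0733%. The 8 genes typical of DND-41 lay at medians of 0.346% to 0.811% of their DND-41 level in the MOLT-4 libraries.

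The windows of 250 bases before the annotated start of TLX3, DLX1 and DLX2 are shown because TLX3 is the most abundant listed gene in DND-41 and the neighbours DLX1 and DLX2 had the lowest fold changes in both lines. They are RefSeq sequences on GRCh38.p14, a later build than the hg19 named for the count tables. TLX3 is on chromosome 5 at chr5:171308998-171309247, plus strand. DLX1 and DLX2 lie side by side on chromosome 2, at chr2:172085257-172085506 on the plus strand and chr2:172102901-172103150 on the minus strand. Each is written 5′ to 3′ along its gene, and the capitals mark TAAT, the core letters bound by many homeodomains, in either orientation.
TLX3: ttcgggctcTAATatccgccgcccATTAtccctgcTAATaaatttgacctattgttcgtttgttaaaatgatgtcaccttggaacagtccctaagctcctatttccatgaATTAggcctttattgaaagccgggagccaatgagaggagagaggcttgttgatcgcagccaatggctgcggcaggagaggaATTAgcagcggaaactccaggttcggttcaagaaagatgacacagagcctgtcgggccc
DLX1: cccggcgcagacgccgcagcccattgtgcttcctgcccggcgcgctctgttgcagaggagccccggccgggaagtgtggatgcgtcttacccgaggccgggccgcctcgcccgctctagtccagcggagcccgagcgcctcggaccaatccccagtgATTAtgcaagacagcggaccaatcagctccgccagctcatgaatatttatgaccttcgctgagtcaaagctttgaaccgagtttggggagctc
DLX2: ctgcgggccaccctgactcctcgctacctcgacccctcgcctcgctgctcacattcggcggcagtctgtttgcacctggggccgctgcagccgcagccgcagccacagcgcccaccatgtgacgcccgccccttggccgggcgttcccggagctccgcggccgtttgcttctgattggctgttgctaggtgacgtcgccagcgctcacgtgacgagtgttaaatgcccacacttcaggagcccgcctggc

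The TLX3 window held 5 matches to TAAT or its reverse complement ATTA. At least 1 match was found in 47.4% of 35116 promoter windows of the same length, and at least 5 in 6.16%. The DLX1 window held 1 match and the DLX2 window 0. Other motifs were searched on both strands. The RUNX motif TGTGGT was found in 11% of all windows and the RBPJ motif GTGGGAA in 5.43%. The E-box CANNTG was found in 61.8% and the core promoter element TATAAA in 10.7%. None of them was in the TLX3 or the DLX1 window. The DLX2 window held 3 E-box matches, and 10.4% of all windows held at least as many. The G and C content was 48.8% for TLX3, 63.6% for DLX1 and 68% for DLX2, against a median of 58%, and the windows held 10, 23 and 25 CpG pairs, against a median of 11. A match describes these letters only, since no binding was measured.

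TLX3 (ENSG00000164438) was the most abundant of the 10 transcripts in DND-41 and was nearly absent from MOLT-4. It had 7115 and 7523 counts in the DND-41 DMSO libraries and 4611 and 5555 in the DND-41 ACBI-1 libraries. Both treated libraries lay below both controls, although the treated pair was spread more widely than the control pair. The group means were 362 ± 16.4 CPM (SD, n = 2) in DMSO and 247 ± 29.2 CPM with ACBI-1, a log2 fold change of -0.54 ± 0.07 (SE) that ranged from -0.66 to -0.42 as each library was left out. In RNA from whole cultures, fewer cells with the transcript and less of it per cell cannot be told apart. In MOLT-4, TLX3 had 1 and 1 counts in DMSO and 1 and 9 with ACBI-1. The 9 counts were 0.152% of the DND-41 mean, against 0.0166% to 0.0170% in the other MOLT-4 libraries, and in that library the 8 genes typical of DND-41 had a median of 0.574% of their DND-41 level. Their part in the 9 counts was not tested, and TLX3 did not pass the filter on low counts in MOLT-4.

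TLX1, the paralogue of TLX3, was at 0 counts in all 4 DND-41 libraries. In MOLT-4 it had 1 and 2 counts in DMSO and 2 and 0 with ACBI-1. At this depth its response could not be measured in either line, since a count of 0 in a library allows up to 3.

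Between the lines, TLX3 summed to 14638 counts in the DND-41 DMSO libraries and to 2 in MOLT-4. The ratio of DND-41 to MOLT-4 was 7016, with an exact 95% interval of 1942 to 57935 that covers counting error only. Its level also led the list per length of exon, with 242 ± 11 CPM per kb in DND-41 DMSO. By comparison PBX2 had 24.9 ± 0.35 CPM per kb and PBX3 5.66 ± 0.12 in the same libraries.

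**Figure D1:**
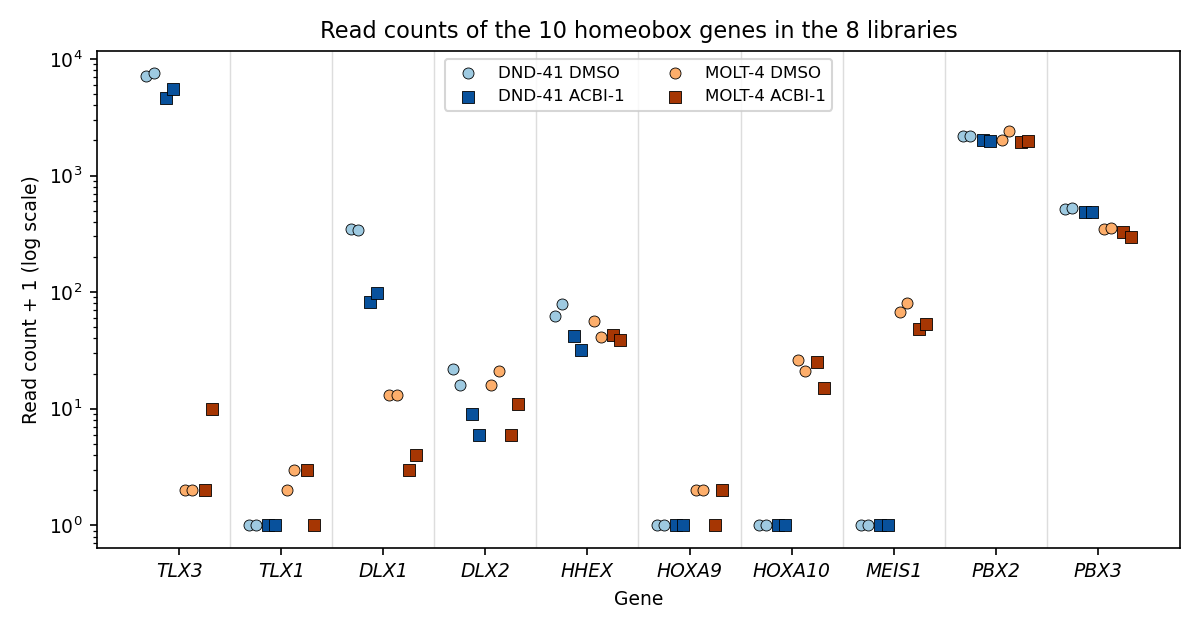
Read counts plus 1 of the 10 listed homeobox genes (x axis) on a log scale (y axis), with 1 point for each of the 8 libraries and colour and shape for the 4 groups. TLX3 lies between 4611 and 7523 counts in DND-41 and at 9 or fewer in MOLT-4, while HOXA10 and MEIS1 are at 0 in DND-41.

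DLX1 (ENSG00000144355) showed the largest fall of the 10 in both lines. In DND-41 it had 349 and 342 counts in DMSO and 81 and 97 with ACBI-1, so the groups lay far apart. The means were 17.1 ± 0.15 CPM (SD, n = 2) and 4.32 ± 0.49 CPM, a log2 fold change of -1.96 ± 0.13 (-2.08 to -1.86 with a library left out), and 6 of the 14019 genes tested in that line had a lower one. This fall was part of the reason for the list and is given without a test.

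In MOLT-4, where DLX1 is a rare transcript, the fall was of similar size. It had 12 and 12 counts in DMSO and 2 and 3 with ACBI-1, with no overlap. The log2 fold change was -2.24 ± 0.60, with an adjusted p of 0.0142 by edgeR's quasi-likelihood test, and 5 of 14470 genes had a lower one. The ratio of summed counts, DMSO over ACBI-1, was 4.87 (exact 95% interval 1.82 to 16.3, counting error only). DLX1 passed the filter in MOLT-4 only through its DMSO libraries. Its call was lost without any 1 of the 4 libraries, with log2 fold changes of -1.97 and -2.54 without ACBI-1 replicates 1 and 2, and -2.24 and -2.23 without DMSO replicates 1 and 2 (adjusted p 0.344, 0.235, 0.0705 and 0.0956, edgeR).

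DLX2 (ENSG00000115844), which is transcribed towards DLX1 from the opposite strand, was low in both lines. In DND-41 it had 21 and 15 counts in DMSO and 8 and 5 with ACBI-1. Both treated libraries lay below both controls, and the log2 fold change of -1.46 ± 0.47 passed the test (adjusted p 0.0442, edgeR). The ratio of summed counts, DMSO over ACBI-1, was 2.82 (1.46 to 5.79). The call was lost without any 1 of the 4 libraries, with an adjusted p of 0.227 and 0.288 without ACBI-1 replicates 1 and 2 and of 0.453 and 0.0925 without DMSO replicates 1 and 2 (edgeR), and it was 0.0519 in the fit of all 8 libraries.

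In MOLT-4, DLX2 had 15 and 20 counts in DMSO and 5 and 10 with ACBI-1, again with no overlap. The log2 fold change was -1.24 ± 0.45 and did not pass the test (adjusted p 0.0821, edgeR). The ratio of summed counts was 2.37 (1.26 to 4.66). DLX2 entered the test through its DMSO libraries in both lines.

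The DLX pair differed in how the lines expressed it. DLX1 was lower in MOLT-4 than in DND-41 under DMSO, by a log2 difference of -4.77 ± 0.20 (adjusted p 6.19e-18, edgeR). The ratio of DND-41 to MOLT-4 in summed counts was 27.6 (18.4 to 43.4). DLX2 had 36 counts in the DND-41 DMSO libraries and 35 in those of MOLT-4, with a log2 difference of 0.02 ± 0.39 (adjusted p 0.967, edgeR). The response to ACBI-1 was not shown to differ between the lines for either gene: the MOLT-4 minus DND-41 difference was -0.25 ± 0.56 for DLX1 (adjusted p 0.984) and 0.25 ± 0.69 for DLX2 (adjusted p 0.992, edgeR), so differences of more than 1 log2 unit lie within 2 SE.

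HHEX fell in DND-41. It had 61 and 78 counts in DMSO and 41 and 31 with ACBI-1, and both treated libraries were below both controls. The log2 fold change was -0.96 ± 0.24 (adjusted p 0.00863, edgeR), and the ratio of summed counts, DMSO over ACBI-1, was 1.96 (1.47 to 2.65). DESeq2 did not call it (adjusted p 0.104), nor did edgeR without ACBI-1 replicate 1, ACBI-1 replicate 2 or DMSO replicate 2 (0.186, 0.219 and 0.19), and the log2 fold change ranged from -1.19 to -0.75 over the libraries left out. In MOLT-4 it had 56 and 40 counts in DMSO and 42 and 38 with ACBI-1. These groups overlapped, and the log2 fold change was -0.29 ± 0.25 (adjusted p 0.541, edgeR).

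The difference between the responses of HHEX in the lines was 0.69 ± 0.35 on the log2 scale (adjusted p 0.688, edgeR), so the fall was not shown to be particular to DND-41. Under DMSO, HHEX was at 3.44 ± 0.61 CPM (SD, n = 2) in DND-41 and 2.48 ± 0.58 CPM in MOLT-4. That line difference of -0.47 ± 0.23 missed the threshold (adjusted p 0.0729, edgeR). It passed with total-count scaling (adjusted p 0.046, edgeR), and the difference ranged from -0.73 to -0.22 as each library was left out.

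**Figure D2:**
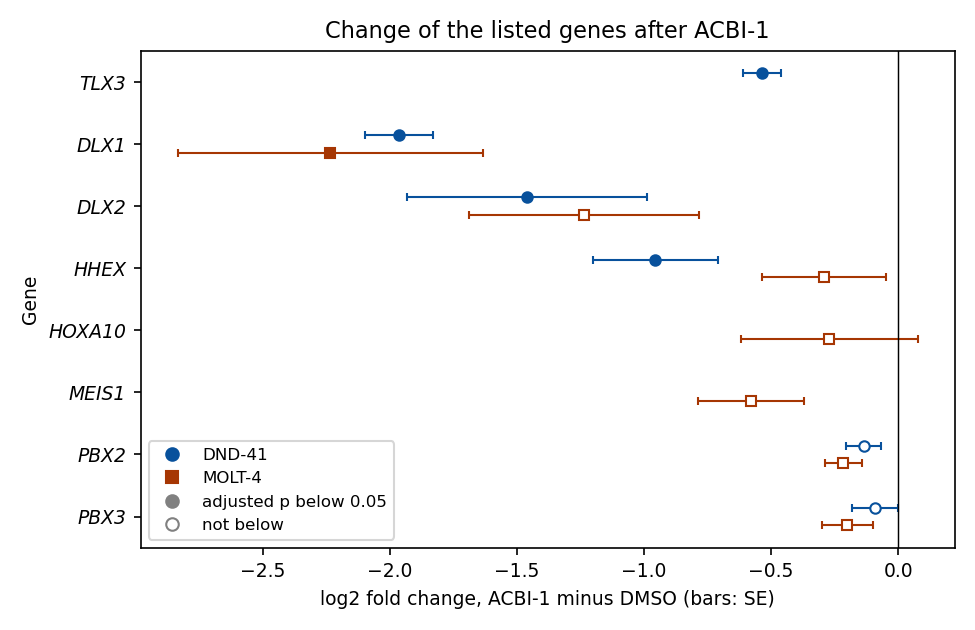
Log2 fold change of ACBI-1 minus DMSO (x axis, bars are SE) for the listed genes tested in at least 1 line (y axis), with circles for DND-41 and squares for MOLT-4, filled where the adjusted p was below 0.05. All points lie below 0, from -2.24 for DLX1 in MOLT-4 to -0.09 for PBX3 in DND-41.

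HOXA9 and HOXA10, adjacent genes on chromosome 7, were at 0 counts in all 4 DND-41 libraries. In MOLT-4, HOXA10 had 25 and 20 counts in DMSO and 24 and 14 with ACBI-1, and these groups overlapped. Its log2 fold change was -0.27 ± 0.35 (adjusted p 0.724, edgeR) and turned to 0.06 without ACBI-1 replicate 2. HOXA9 had 1 and 1 counts in DMSO and 0 and 1 with ACBI-1, too few to test. The annotated exons of HOXA10 overlap those of HOXA9, a read-through transcript and an antisense gene, so the source of single reads is uncertain.

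HOXA10 was at least 15.6-fold higher in MOLT-4 than in DND-41 under DMSO, set against a floor of 3 counts over the DND-41 pair. No fold is given for HOXA9, with 2 counts against 0. The HOXA cluster was not silent in DND-41, since HOXA7, the gene beyond HOXA9, had 244 and 235 counts in its DMSO libraries and 2 and 1 in those of MOLT-4. That log2 difference was -7.15 ± 0.31 (adjusted p 1.33e-17, edgeR), opposite in direction to HOXA10.

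MEIS1, the HOX cofactor, was likewise at 0 counts in all 4 DND-41 libraries. In MOLT-4 it had 66 and 79 counts in DMSO and 47 and 52 with ACBI-1. Both treated libraries lay below both controls, with a log2 fold change of -0.58 ± 0.21 that did not pass the test (adjusted p 0.0787, edgeR). It was at least 50.4-fold higher in MOLT-4 than in DND-41 under DMSO, against the same floor. DND-41 DMSO replicate 2, the library that stood apart, also held 0 counts of MEIS1 and of HOXA10. At the median of 0.653% for MOLT-4 genes in that library, less than 1 read of either was to be expected. Nothing is therefore read from these counts.

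PBX2 and PBX3, which encode TALE-class partners of HOX and MEIS proteins, were well expressed in both lines, with smaller differences than those above. PBX2 had 2172 and 2197 counts in the DND-41 DMSO libraries and 2024 and 1976 with ACBI-1. In MOLT-4 it had 2027 and 2405 in DMSO and 1919 and 1974 with ACBI-1. The treated libraries lay below the controls in both lines, by log2 fold changes of -0.14 ± 0.07 in DND-41 (adjusted p 0.237) and -0.22 ± 0.07 in MOLT-4 (adjusted p 0.0537, edgeR), neither past the threshold. The second value ranged from -0.33, without MOLT-4 DMSO replicate 1, to -0.09 as each library was left out. The symbol PBX2 belongs to 7 identifiers in the tables, and the other 6 had 0 counts in every library.

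PBX3 had 513 and 524 counts in the DND-41 DMSO libraries and 490 and 490 with ACBI-1. In MOLT-4 it had 349 and 351 in DMSO and 327 and 295 with ACBI-1. The log2 fold changes of -0.09 ± 0.09 in DND-41 (adjusted p 0.641) and -0.20 ± 0.10 in MOLT-4 (adjusted p 0.247, edgeR) did not pass the test. Of the cofactors present in both lines, PBX3 was lower in MOLT-4 than in DND-41 under DMSO (log2 difference -0.51 ± 0.09, adjusted p 2.07e-05, edgeR). PBX2 differed by 0.08 ± 0.07 (adjusted p 0.328), a value that became 0.21 (adjusted p 0.0272) without MOLT-4 DMSO replicate 1.

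Ranked per length of exon in the DMSO libraries of DND-41, TLX3 was followed by PBX2, PBX3 at 5.66 ± 0.12, DLX1 at 4.67 ± 0.04, HHEX at 1.36 ± 0.24 and DLX2 at 0.299 ± 0.069 CPM per kb (SD, n = 2). These neighbours were separated by more than their spread, and TLX1, HOXA9, HOXA10 and MEIS1 followed at 0. In MOLT-4 the order began with PBX2 at 26.3 ± 3.2, PBX3 at 3.99 ± 0.02 and HHEX at 0.980 ± 0.229 CPM per kb. MEIS1 at 0.342 ± 0.044, HOXA10 at 0.313 ± 0.049 and DLX2 at 0.304 ± 0.062 could not be ordered within their spread, and DLX1 stood at 0.169, with TLX3, TLX1 and HOXA9 at 0.035, 0.023 and 0.017.

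Over all genes tested in DND-41, 9.83% were called and 6.05% were called lower. Of the 10 listed genes, 6 were tested and 4 were called, all lower: TLX3 and DLX1, on which the list was partly selected, and DLX2 and HHEX. The median log2 fold change of the 6 was -0.75, against 0.0029 over all genes tested. All 6 had both ACBI-1 libraries below both DMSO libraries, as did 27.5% of all genes tested. TLX3 and DLX1 were listed with their falls known, DLX2 passed the filter through its controls, and 4 of the 10 were at 0. These counts and the median therefore describe the tested genes and not the list as a whole. Nothing is read from their distance to the background. Left-out libraries mattered: the number called was 0 without DND-41 ACBI-1 replicate 1, when 3 of all genes were called, and 2 without ACBI-1 replicate 2 or DMSO replicate 2.

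In MOLT-4, 10.8% of all genes tested were called and 6.94% were called lower. Of 7 listed genes tested, DLX1 alone was called, and 4 had an unadjusted p below 0.05. The median of the 7 was -0.29, against -0.00097 over all genes. DLX1, DLX2, MEIS1, PBX2 and PBX3 had both ACBI-1 libraries below both DMSO libraries, 5 of 7 against a background of 24.9%. DLX1 and DLX2 entered this test through their DMSO libraries, so nothing is read from this share or from the median. Without either MOLT-4 ACBI-1 library no gene of the whole table was called, with 1874 and 2273 genes at an unadjusted p below 0.05, so no call in MOLT-4 held in these fits.

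Between the lines under DMSO, 64.4% of all genes tested were called. Of 8 listed genes tested, 5 were called: HOXA10 and MEIS1 higher in MOLT-4, and TLX3, DLX1 and PBX3 lower. This share of the members is close to the background. The line difference of TLX3 was known when the list was made. TLX3, HOXA10 and MEIS1 passed the filter only through the line where they are high, so nothing is read from the count. The response to ACBI-1 differed between the lines for 0.641% of all genes and for 0 of the 8 listed genes by edgeR. DESeq2 also called 0 of the listed genes, but gave no adjusted p for DLX2. By each method 1 listed gene had an unadjusted p below 0.05. TLX3, HOXA10 and MEIS1 are nearly or wholly absent from 1 line, so a difference between responses has no content for them.

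In the authors' deposited table for DND-41, 4.99% of genes with an adjusted p were called, and of the 5 listed genes with one, TLX3 and DLX1 were called. HHEX had a deposited adjusted p of 0.156 in the authors' deposited table, and DLX2 had none. In the authors' deposited table for MOLT-4, 5.57% of genes were called and 0 of the 4 listed genes with an adjusted p. DLX1 had no adjusted p there, with a log2 fold change of -2.28 once the sign of the authors' deposited table was turned to ACBI-1 minus DMSO.

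The wider family gave the listed genes their setting. Of the 215 other homeobox genes, 45 were tested in DND-41 and 6 were called, 2 higher and 4 lower, or 13.3% against the 9.83% of all genes tested, with a median log2 fold change of 0.01. PITX1, a hindlimb and pituitary factor, fell from 1077 and 1221 counts to 681 and 837 (-0.61 ± 0.09, adjusted p 5.62e-06, edgeR). PKNOX1, a TALE-class partner of PBX proteins, fell by 0.32 ± 0.08 and TSHZ3 by 0.30 ± 0.09 on the log2 scale. POU2F1, the ubiquitous octamer-binding factor, rose by 0.33 ± 0.08 and ZHX1 by 0.33 ± 0.07. POU3F2, a neural octamer-binding factor, fell from 23 and 32 counts to 6 and 14 (-1.46 ± 0.41). It passed the filter through its DMSO libraries, and its value ran from -2.17 without ACBI-1 replicate 2 to -0.99 without ACBI-1 replicate 1. In the NKL subclass 5 genes were tested in DND-41, and those called were the listed TLX3, DLX1, DLX2 and HHEX, so this count repeats that of the list. Of 8 HOX and ParaHOX genes tested none was called, and 2 had an unadjusted p below 0.05. DESeq2 called 2 of the other homeobox genes in DND-41. With edgeR none was called without ACBI-1 replicate 1, and 1, 3 and 1 were called without ACBI-1 replicate 2, DMSO replicate 1 and DMSO replicate 2.

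In MOLT-4, 56 of the other homeobox genes were tested and 14 were called, 13 lower and 1 higher, or 25% against the 10.8% of all genes tested, with a median of -0.14. MSX1, an NKL gene of limb and facial development, fell from 187 and 206 counts to 88 and 65 (-1.39 ± 0.16, adjusted p 6.27e-07, edgeR). PAX6, the eye-field regulator, fell from 1084 and 1146 to 560 and 712 (-0.84 ± 0.09, adjusted p 2.29e-07). SATB1, a chromatin organiser of thymocytes, fell from 3757 and 3674 to 2734 and 2485 (-0.54 ± 0.06, adjusted p 8.35e-07). In each of these 3 genes the treated and control libraries lay well apart.

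MNX1, a motor neuron factor, fell by 1.23 ± 0.18 and SIX3, a forebrain factor, by 1.30 ± 0.22 on the log2 scale. PITX1 fell by 1.11 ± 0.23, POU3F2 by 0.57 ± 0.11, HOXD13 by 0.40 ± 0.10, ONECUT2 by 0.37 ± 0.10, TGIF2 by 0.26 ± 0.07 and IRX4 by 0.85 ± 0.26. SIX6, a paralogue of SIX3, was the gene that rose, from 2572 and 2403 counts to 3223 and 2791 (0.24 ± 0.07, adjusted p 0.0168, edgeR). HMX2 fell by 2.01 ± 0.45 from 25 and 23 counts to 9 and 3. It too entered the test only through its DMSO libraries, and its value ran from -2.96 without ACBI-1 replicate 1 to -1.43 without ACBI-1 replicate 2. The fourteenth, PKNOX1, fell by 0.24 ± 0.08 at the edge of the threshold (adjusted p 0.0498). HMX2 and PKNOX1 here and POU3F2 in DND-41 lay outside the rule for named genes and were chosen after their values were seen. As for the listed genes, none of these calls held without MOLT-4 ACBI-1 replicate 1 or replicate 2, and DESeq2 called 9 of the other homeobox genes.

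**Figure D3:**
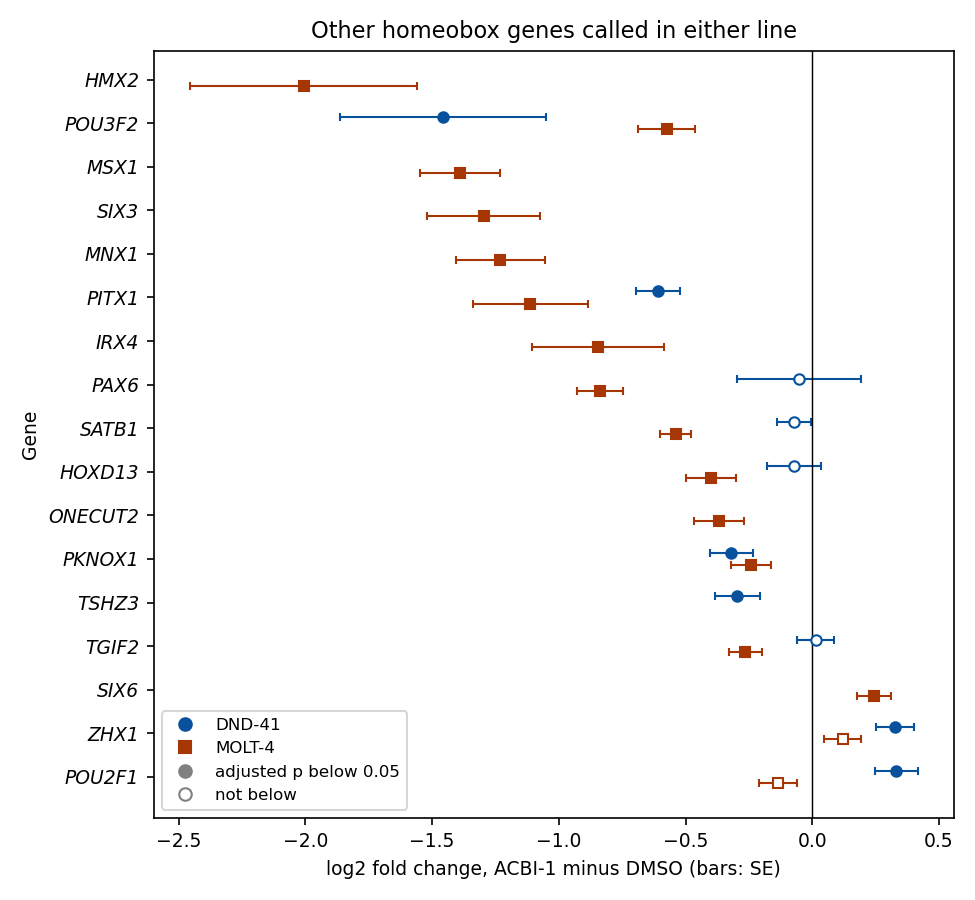
Log2 fold change of ACBI-1 minus DMSO (x axis, bars are SE) for the homeobox genes outside the list that were called in either line (y axis), with circles for DND-41 and squares for MOLT-4, filled where the adjusted p was below 0.05 and absent where a gene was not tested. PITX1, POU3F2 and PKNOX1 are filled and below 0 in both lines, and SIX6, ZHX1 and POU2F1 have the points called above 0.

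Both lines called 4 homeobox genes lower: DLX1, PITX1, POU3F2 and PKNOX1, of 38 tested in both. Over all genes tested in both lines, 3.32% were called lower in both. The 4 include DLX1, whose fall in DND-41 was among the reasons for the list, and POU3F2 in DND-41 and DLX1 in MOLT-4 were tested through their DMSO libraries, so nothing is read from the count. The difference between the lines in the response passed the test for 1 homeobox gene, SATB1, whose log2 fold change was -0.07 ± 0.07 in DND-41 and -0.54 ± 0.06 in MOLT-4. The difference was -0.44 ± 0.09 (adjusted p 0.0112, edgeR), and it missed the threshold without DND-41 DMSO replicate 2 (0.104) or MOLT-4 ACBI-1 replicate 2 (0.112).

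The other homeobox genes also differed between the lines. Of 68 tested under DMSO, 59 were called, 36 higher in MOLT-4 and 23 lower, against the 64.4% called among all genes. MNX1 was at least 87.3-fold and SIX3 at least 71.3-fold higher in MOLT-4, against 0 counts in DND-41. SIX6 had 2572 and 2403 counts in MOLT-4 and 0 and 10 in DND-41, where the 10 lay in DMSO replicate 2, the library with MOLT-4 genes above the other DND-41 libraries.

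On the DND-41 side, TSHZ3 had 743 and 795 counts against 3 and 1 in MOLT-4 (log2 difference -8.44 ± 0.25), and PITX1 had 1077 and 1221 against 68 and 70 (-3.99 ± 0.12). With TLX3, DLX1 and HOXA7 these were the 5 homeobox genes furthest above MOLT-4 among those with a mean of at least 5 CPM. Leaving out MOLT-4 DMSO replicate 1 or 2 moved TSHZ3 to -9.36 or -7.85, since it rests on 4 counts in MOLT-4.

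**Figure D4:**
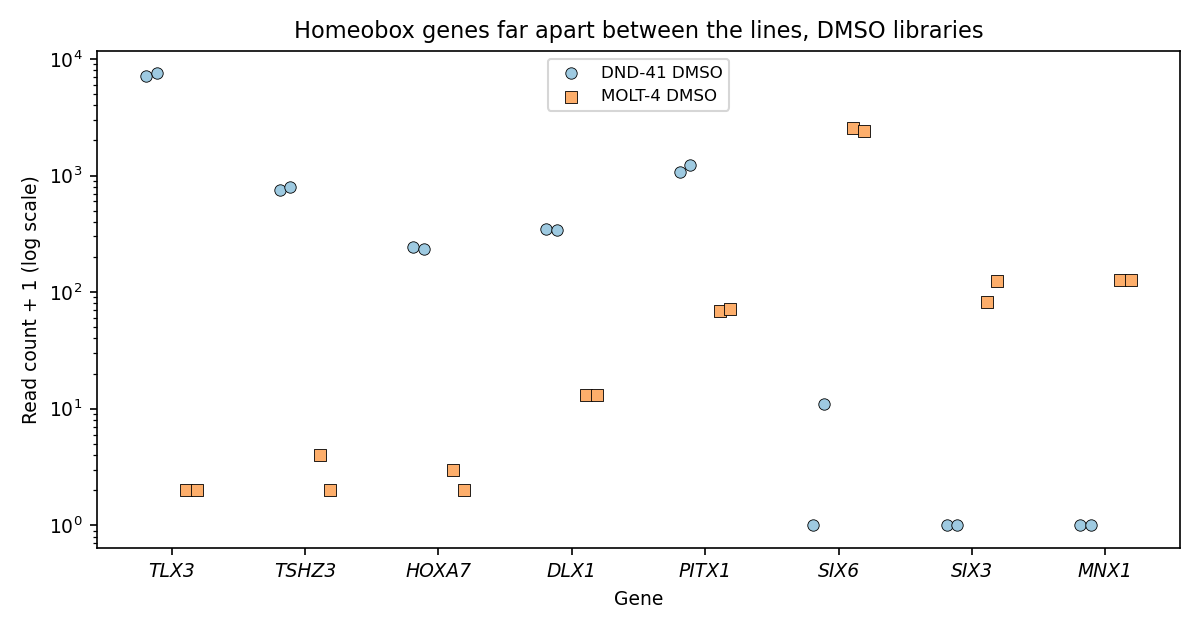
Read counts plus 1 on a log scale (y axis) in the 4 DMSO libraries for 8 homeobox genes among those furthest apart between DND-41 and MOLT-4 (x axis), with circles for DND-41 and squares for MOLT-4. TLX3, TSHZ3, HOXA7, DLX1 and PITX1 are higher in DND-41, and MNX1 and SIX3 are at 0 counts there.

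The neighbours of the listed genes were also examined. RANBP17, next to TLX3, had 37 and 32 counts in the DND-41 DMSO libraries, 24 and 18 with ACBI-1 and 0 in all MOLT-4 libraries. Its log2 fold change in DND-41 was -0.72 ± 0.32 (adjusted p 0.166, edgeR), and it was at least 22.0-fold higher in DND-41 under DMSO. NPM1, on the other side of TLX3, did not pass the test in DND-41 (0.02 ± 0.08, adjusted p 0.941). Beside the DLX pair, ITGA6, an integrin subunit, fell in DND-41 by 0.46 ± 0.14 on the log2 scale (adjusted p 0.0358) and METAP1D stood at 0.12 ± 0.09 (adjusted p 0.468, edgeR). Of 21 neighbours tested in DND-41, 1 rose and 3 fell, against 9.83% of all genes called there. Of 19 in MOLT-4, 1 rose and 1 fell, close to the background of 10.8% called. ETAA1, the gene after MEIS1, rose in both lines, by 0.31 ± 0.10 and 0.46 ± 0.10, and LCP2, near TLX3, fell in both, by 0.33 ± 0.07 and 0.51 ± 0.07 on the log2 scale. SPRED2, on the other side of MEIS1, fell in DND-41 by 0.36 ± 0.07. The DND-41 calls of ETAA1 and ITGA6 were lost with DESeq2 (adjusted p 0.272 and 0.244) and without any 1 of the 4 libraries, at adjusted p of 0.116 to 0.492 and 0.0715 to 0.337 in edgeR. Those of LCP2 and SPRED2 held only without DMSO replicate 2 among the libraries left out. RANBP17, NPM1 and METAP1D are named for their place beside TLX3 and the DLX pair.

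Proteins that act with the listed genes were compared by their transcripts. A list of 17 genes tied to MLL, menin and the regulation of HOXA and MEIS1 also held SET, NUP214, XPO1 and PICALM. None of the 17 was called lower in either line. Over all genes the shares called lower were 6.05% and 6.94%, so none of 17 is close to the background. AFF1, a fusion partner of MLL, rose by 0.21 ± 0.07 in DND-41 and 0.37 ± 0.07 in MOLT-4, and WDR5 rose by 0.22 ± 0.07 in MOLT-4. Of 10 TLX partners and T-ALL regulators tested in DND-41, MYB rose by 0.22 ± 0.07, and WT1 and LDB1 fell by 0.55 ± 0.10 and 0.24 ± 0.07 on the log2 scale, 3 of 10 against 9.83% of all genes. The DND-41 calls of AFF1, MYB and LDB1 were lost without any 1 of the 4 libraries, and that of WT1 without ACBI-1 replicate 1 (adjusted p 0.166) or replicate 2 (0.0534, edgeR). Of 11 tested in MOLT-4, 2 rose and 5 fell, against 10.8% of all genes called. ETS1, which takes part in TLX-mediated repression of the T-cell receptor alpha enhancer, rose by 0.46 ± 0.06, and WT1, LMO2 and GATA3 fell by 0.84 ± 0.08, 1.49 ± 0.22 and 0.48 ± 0.06. LMO2, upstream of HHEX, was at 0 counts in all DND-41 libraries and at 115 and 87 in MOLT-4 DMSO, so HHEX was present in both lines while LMO2 was counted in 1. The MOLT-4 calls in these lists too were lost without either ACBI-1 library.

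The genes whose profile over the 8 libraries lay nearest to that of TLX3, by root mean square distance of centred log2(CPM + 1) among 10759 genes, were IL7R, CDKN2A, H19, CD79A and ISOC2, at distances of 0.35, 0.40, 0.43, 0.59 and 0.79. All 5 were high in DND-41 and low in MOLT-4, and their log2 fold changes with ACBI-1 in DND-41 ran from -0.17 for H19 to 0.22 for IL7R, against -0.54 for TLX3. For DLX1 the nearest were RGS16, PRF1, BBC3, SPSB1 and RRN3P1, at distances of 0.35 to 0.40. These 5 shared with DLX1 both the higher level in DND-41 and a lower value with ACBI-1 there, from -1.38 for BBC3 to -0.71 for SPSB1. The distances describe profiles that share the same libraries and carry no test.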

How the data were processed

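The authors deposited raw read counts per gene, 1 table per line, and the labels' protocols give the libraries as strand-specific. The submitters' processing notes name hg19, DESeq2 1.12.4, featureCounts and STAR 2.5.2a, with no role or order. Which annotation and strand setting featureCounts used is not given in the sources used here. The authors' deposited comparison tables hold a mean normalised count signal, a log2 fold change, a Wald score and p-values, per the file headers. No header gives their direction, which was taken from their correlation with fold changes of the counts (0.999976 in DND-41, -0.999981 in MOLT-4, where the sign was turned).

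Counts were fitted over all genes with edgeR 4.0.16 (limma 3.58.1, R 4.3.3): TMM scaling, filterByExpr (minimum count 10), quasi-likelihood test, Benjamini-Hochberg adjustment over all genes tested and a threshold of 0.05. "Called" means past that threshold. Each line was fitted on its 4 libraries, and the line comparison and the difference in response on all 8. SEs are the log2 fold change divided by the square root of F. CPM were scaled by TMM over 8 libraries and set per kb of exon by GENCODE 29. The script was tested on simulated data. The members and lists were chosen with earlier results of these data known. Named genes were all 10 members. They were joined by other called homeobox genes with a mean of at least 1 CPM, at most 12 per line by p, and by the 5 largest line differences each way with at least 5 CPM. Up to 4 genes per other list and the 5 nearest profiles of TLX3 and DLX1 completed the rule. Some genes it chose are not reported here. No 2 replicates agreed within sampling noise (mean chi-square per gene 17.2 in DND-41 ACBI-1 and 3.19 to 5.58 in the other groups). Alternatives were DESeq2 1.42.0, its size factors, total counts, no filter, the replicate block, 1 fit of 8 libraries and each library left out. No exact permutation test of 2 against 2 can reach 0.05.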

Additional observations from a re-analysis of the deposited data

Results flagged for a closer look

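The difference between the lines in the response to ACBI-1, MOLT-4 minus DND-41, passed the test for SATB1, at -0.44 ± 0.09 on the log2 scale (adjusted p 0.0112, edgeR). SATB1 had 2077 and 2013 counts in the DND-41 DMSO libraries and 1953 and 1963 with ACBI-1. GATA3, a T-cell transcription factor of the TLX partner list, also differed, at -0.40 ± 0.09 (adjusted p 0.0423, edgeR). It had 4343 and 4090 counts in DND-41 DMSO and 3953 and 4218 with ACBI-1, and fell from 4978 and 4923 to 3887 and 3371 in MOLT-4. The call for GATA3 was lost with total-count scaling (adjusted p 0.0621), and without MOLT-4 ACBI-1 replicate 2 (0.305) or DND-41 DMSO replicate 2 (0.31) among others. Groups of 2 libraries are too small to test a library as an outlier.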

How the results depend on the processing

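No called result reversed its direction. Uncalled values that crossed 0 with 1 library left out were HOXA10 in MOLT-4 (-0.69 to 0.06), DLX2 and PBX2 between the lines (-0.19 to 0.27 and -0.01 to 0.21), and the response differences of DLX2 (-0.36 to 0.63) and PBX2 (-0.20 to 0.05). Scaling by DESeq2 size factors or total counts kept all counts of called genes within 1.5 times. In DND-41, 4 listed genes were called, 2 with DESeq2, 0 with no filter and 0 to 3 with 1 library left out. The wider list gave 6 there, 2 with DESeq2, 0 with no filter, 10 with the replicate block and 0 to 3 with 1 library left out. All genes gave 1378, 664 with DESeq2, 2 with no filter, 2230 with the block and 3 to 632 with 1 library left out. In MOLT-4, 1 listed gene was called, DLX1, and its call was lost with each library left out. No filter gave 0 and the block 4. DESeq2 gave 0, but it gave no adjusted p for DLX1 in MOLT-4 or for DLX2 in DND-41, so it did not judge those calls. The wider list gave 14, 9 with DESeq2, 0 with no filter and 0 to 15 with 1 library left out. All genes gave 1568, 754 with DESeq2, 39 with no filter and 0 to 1430 with 1 library left out. For the difference in response, the wider list gave 1, 0 with no filter, 3 with the block and 0 to 2 with 1 library left out, and all genes gave 100, 13 with no filter, 302 with the block and 49 to 138. With 1 library left out, the line comparison called 5 to 7 listed genes, 58 to 65 of the wider list and 9154 to 10442 of all genes; over the other alternatives it called 5 to 6, 55 to 68 and 8968 to 10126. With no filter many more genes were tested, and with 1 library left out an arm held 1 library, assumed to vary like the others; other causes were not tested.

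The replicate block made DLX2 (adjusted p 0.0395), MEIS1 (0.0474) and PBX2 (0.00332) pass in MOLT-4 (edgeR). Deviations of same-numbered libraries correlated at 0.109 (DND-41) and 0.0867 (MOLT-4). With 2 pairs per line, these values cannot decide whether same-numbered libraries were paired. The block also turned the line differences of DLX2 (-0.55) and PBX2 (-0.01), and total counts that of DLX2 (-0.03), all uncalled. Depth limits TLX1 and HOXA9, with 0 to 2 counts per library.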
